A study of Homo sapiens with 6 samples.

Results

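The genes described here encode the subunits of the gamma tubulin ring complex, the particle from which microtubules grow: the gamma tubulins TUBG1 and TUBG2, the gamma tubulin complex proteins (GCPs) TUBGCP2 to TUBGCP6, and the mitotic spindle organizing proteins MZT1, MZT2A and MZT2B. They were taken by gene name, and all 10 names were found once each among the 58735 genes of the counts table. RNA-seq read counts came from 6 libraries of RPE-1, an immortalized human retinal pigment epithelial line. Its centrin CETN2 is fused to GFP so that centrioles can be seen, and its PLK4, the kinase that starts centriole duplication, answers to doxycycline through rtTA. The 3 siControl libraries are from cells given a scramble siRNA and the 3 siSON libraries from cells given an siRNA against SON, a nuclear speckle protein of pre-mRNA splicing. All libraries of both groups are from cells that received doxycycline (1 µg/mL) to switch PLK4 on, so each difference below sets the SON siRNA against the scramble siRNA with PLK4 induced, and cells without induction were not analysed here. The labels do not say whether replicates are separate cultures, so that p-values measure the spread between these libraries, which may be technical.

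Gamma tubulin does not form microtubules itself but caps their minus ends and sets the geometry of a new microtubule. GCP2 and GCP3 each hold a gamma tubulin molecule and together form the small complex, several of which join with GCP4, GCP5 and GCP6 into an open ring. The MZT proteins are very small subunits that bind the amino-terminal parts of GCPs. Recruiting factors such as CDK5RAP2, pericentrin (PCNT), CEP192 and NEDD1 bring rings to the centrosome, and the augmin complex brings them to the sides of spindle microtubules.

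Library totals ran from 54572365 to 69764836 counts, and 3 counts corresponded to 0.0402 to 0.0590 CPM (counts scaled to a common library size with TMM factors). All 10 subunits passed the filter on low counts, and the smallest count of any of them in any library was 498. SON was at 295.3, 312.7 and 283.9 CPM in siControl and at 68.0, 70.0 and 65.0 CPM in siSON. Of 8 markers of retinal pigment epithelium, BEST1, PMEL, MITF and OTX2 were counted deeply enough to be tested. TYR and TTR had 0 counts in every library, and RPE65, which defines the mature tissue, had 6 to 18 counts in siControl and 0 in siSON. The summed level of the 8 markers was 51.0 to 52.8 CPM in siControl and 73.9 to 83.3 CPM in siSON, and the summed level of 7 markers of blood, endothelium, liver and neurons was 7.46 to 8.55 CPM and 9.46 to 10.9 CPM. Single markers went both ways. MITF, OTX2 and BEST1 rose by 0.52, 0.82 and 0.62 on the log2 scale, while PMEL, a pigment granule protein, went from 2.06 to 0.200 CPM (log2 fold change -3.36, edgeR adjusted p 3.72e-07). Among markers of other cell types the neuronal SNAP25 rose from 5.05 to 9.11 CPM (0.85 on the log2 scale, edgeR adjusted p 0.000142), and the blood marker PTPRC and the endothelial marker PECAM1 had log2 fold changes of -2.29 and -1.11 (edgeR adjusted p 4.40e-05 and 0.0190) from control levels of 1.44 and 1.14 CPM. CDH5 had 5 to 10 counts in siControl and 0 to 4 in siSON and was not tested. Of 6 epithelial and mesenchymal markers, KRT18 rose from 220 to 615 CPM (log2 fold change 1.48, edgeR adjusted p 2.70e-09). KRT8 rose by 0.34 on the log2 scale (edgeR adjusted p 0.000273), VIM and FN1 were not called, and CDH1 and EPCAM were too low to test. The part of these shifts in the results was not tested.

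The gamma tubulin genes and the MZT2 genes are pairs of close copies, and their sequences are shown because they bear on how reads can be assigned to them. Sequences are from the GENCODE release 29 transcripts (GRCh38). The coding sequences of TUBG1 and TUBG2 are both 1353 nt long and are identical at 1281 positions (94.7%), with a longest identical run of 215 nt. Of the 75-nt stretches of the principal TUBG1 transcript, 20.4% occur in that of TUBG2 as well. The 90 coding bases of one exon in which the copies differ most are given, both on the plus strand in exon 11, for TUBG1 at chr17:42614844-42614933 and for TUBG2 at chr17:42666603-42666692. Capitals mark the 12 bases at which they differ.
TUBG1: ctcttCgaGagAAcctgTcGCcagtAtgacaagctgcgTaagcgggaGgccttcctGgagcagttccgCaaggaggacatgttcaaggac
TUBG2: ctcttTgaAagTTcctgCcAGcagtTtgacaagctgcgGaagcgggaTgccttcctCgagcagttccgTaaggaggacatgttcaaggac
In some other stretches they cannot be told apart over such a length. One lies in exon 3, at chr17:42610423-42610512 for TUBG1 and at chr17:42660149-42660238 for TUBG2, where all 90 bases are the same.
TUBG1 and TUBG2: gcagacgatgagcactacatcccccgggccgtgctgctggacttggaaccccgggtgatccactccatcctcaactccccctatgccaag

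MZT2A and MZT2B are closer still. Their coding sequences of 474 nt differ at 10 positions (97.9% identity), and 21.5% of the 75-nt stretches of the principal MZT2A transcript occur in that of MZT2B. The most different 90 coding bases of one exon lie in exon 3, at chr2:131484129-131484218 on the minus strand for MZT2A and at chr2:130190469-130190558 on the plus strand for MZT2B, and capitals mark their 5 differing bases.
MZT2A: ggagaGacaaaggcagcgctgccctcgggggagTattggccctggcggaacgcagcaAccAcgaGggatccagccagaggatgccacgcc
MZT2B: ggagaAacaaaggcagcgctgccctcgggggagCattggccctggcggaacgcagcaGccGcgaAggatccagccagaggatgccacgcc
The share of reads that fall in common stretches depends on read length and on the treatment of multi-mapping reads, neither of which is stated in the sources used here. Values for either gene of a pair are therefore uncertain, and the sums over each pair, which do not depend on how reads were split within it, are given as well. The annotated pseudogenes MZT1P1 and TUBG1P had 0 counts in every library and MZT1P2 had 1 count in siSON replicate 3; TUBG1P was added after its values were seen.

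After SON knockdown 8 of the 10 subunits were called changed at an adjusted p under 0.05, 2 of them higher (TUBG2 and TUBGCP3) and 6 lower (TUBG1, TUBGCP2, TUBGCP5, TUBGCP6, MZT2A and MZT2B). Over all 16591 genes tested, 71.7% were called, 35.2% higher and 36.5% lower, so the share of subunits called is near that of genes in general. Over all genes 5834 were higher and 6054 lower, against 4441 and 7351 without TMM factors (library size alone), a scaling that moved the median of all genes by -0.20 on the log2 scale. The median log2 fold change was -0.42 for the 10 subunits and -0.03 for all genes tested. Fold changes of at least 2 were seen for 3 subunits, TUBG1, TUBGCP2 and TUBGCP6, each lower; over all genes tested 20.5% were called at least 2-fold lower and 8.72% at least 2-fold higher. The groups did not overlap for the 8 subunits called, as for 75.1% of all genes tested.

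**Figure D1:**
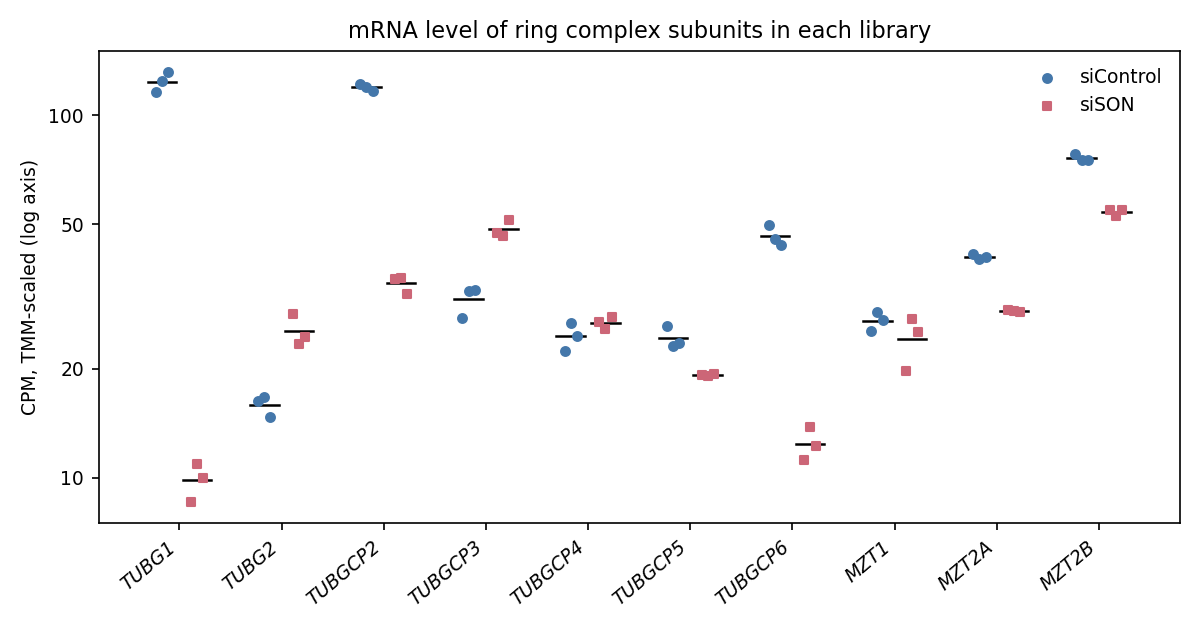
CPM (scaled by TMM, log axis) of each ring complex subunit in every library, with siControl as circles, siSON as squares and a black line at each group mean (n = 3). TUBG1 went from 116 to 132 CPM down to 8.58 to 10.9 CPM, while TUBGCP4 and MZT1 overlapped between groups.

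The gamma tubulin genes moved in opposite directions. TUBG1 (ENSG00000131462; GRCh38 chromosome 17, 42609676 to 42615234, plus strand) encodes the main gamma tubulin of dividing cells, and TUBG2 (ENSG00000037042; chromosome 17, 42659305 to 42667006, plus strand) its close copy. The level of TUBG1 was 116, 124 and 132 CPM in the siControl libraries and 8.58, 10.9 and 9.97 CPM in the siSON libraries, here and below in the order of replicates 1 to 3. Every siSON library lay far below every siControl library, and 7.92% of the mean control level was left. In such bulk RNA, fewer cells with the transcript and less of it per cell cannot be told apart. The log2 fold change was -3.66 (95% confidence interval -3.87 to -3.46, edgeR adjusted p 6.06e-10), and 274 of the 16591 genes tested had a lower one. TUBG2 had 16.3, 16.7 and 14.7 CPM in siControl and 28.3, 23.4 and 24.4 CPM in siSON. All siSON libraries were above all siControl libraries, with a log2 fold change of 0.67 (95% confidence interval 0.47 to 0.88, edgeR adjusted p 4.99e-05).

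The rank of the paralogs turned over within the libraries. The log2 ratio of TUBG1 to TUBG2 was 2.83, 2.90 and 3.16 in siControl and -1.72, -1.10 and -1.29 in siSON. It fell by 4.33 on the log2 scale, from 2.96 ± 0.17 to -1.37 ± 0.32 (SD, n = 3 each). Scaled by transcript length, TUBG1 made up 89.5% ± 1.11 of gamma tubulin mRNA in siControl and 29.8% ± 4.53 in siSON (SD, n = 3 each). The rise of TUBG2 was small beside the loss of TUBG1: the sum of both was 132, 141 and 146 CPM in siControl and 36.9, 34.3 and 34.4 CPM in siSON, so that 25.1% of the control sum remained. On the log2 scale the sum fell by 1.99. The 2-sided exact permutation test gave p = 0.1 for the ratio and for the sum, as for each of the 4 ratios and sums tested (0.1 after Benjamini-Hochberg adjustment), which is the smallest p that 3 libraries against 3 can give.

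The opposite responses came from genes alike in their coding exons, while 3 of their 10 introns are equal in length. Both principal transcripts have 11 exons, and the coding length is equal in all 11. GC content was 57.8% for the TUBG1 transcript and 58.8% for that of TUBG2, and the median intron was 272 bp and 270 bp. Introns 2, 7 and 9 have the same length in both genes, at 202, 115 and 83 bp. The introns that differ most are intron 3, at 1484 bp in TUBG1 and 322 bp in TUBG2, intron 4, at 283 and 2265 bp, and intron 6, at 573 and 1972 bp. The genes lie on the same strand with 44070 bp between them, and 2 annotated genes lie wholly in that gap. RETREG3, an endoplasmic reticulum membrane protein gene that starts inside TUBG1 on the opposite strand, shares 139 of the 2411 annotated exon bases of TUBG1 (5.8%). RETREG3 was at 50.5 ± 3.96 CPM in siControl and 123 ± 7.95 CPM in siSON (SD, n = 3 each), a rise of 1.29 on the log2 scale (edgeR adjusted p 4.52e-08), opposite in direction to TUBG1.

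**Figure D2:**
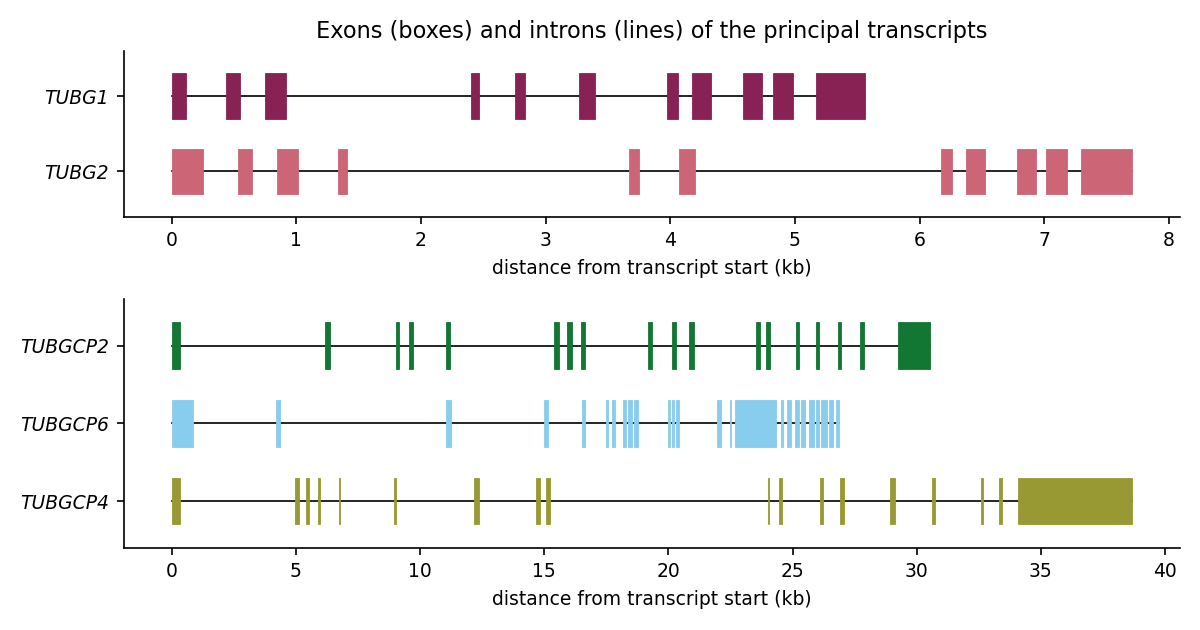
Exon and intron layout of principal transcripts against distance from the transcript start in kb, with TUBG1 and TUBG2 above and TUBGCP2, TUBGCP6 and TUBGCP4 below on a longer scale. TUBG1 and TUBG2 both show 11 exons of matching order, and the 24 introns of TUBGCP6 are crowded toward its end.

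The GCPs of the small complex also parted. TUBGCP2 (ENSG00000130640; chromosome 10, 133278630 to 133312337, minus strand) had 122, 119.6 and 117 CPM in siControl and 35.4, 35.5 and 32.2 CPM in siSON. The groups were far apart, with 28.8% of the control mean left and a log2 fold change of -1.80 (95% confidence interval -1.93 to -1.66, edgeR adjusted p 1.99e-09). ZNF511, on the opposite strand, shares 11.6% of the annotated exon bases of TUBGCP2 and had a log2 fold change of 0.41 (SE 0.08, edgeR adjusted p 0.00108). AL360181.2 overlaps TUBGCP2 on the same strand but shares 0 exon bases with it. It was at 1.01 CPM in siControl and 2.56 CPM in siSON, a log2 fold change of 1.35 (SE 0.23, edgeR adjusted p 0.000298). TUBGCP3 (ENSG00000126216; chromosome 13, 112485005 to 112588205, minus strand) had 27.5, 32.8 and 32.9 CPM in siControl and 47.4, 46.6 and 51.4 CPM in siSON. All siSON libraries were higher, with a log2 fold change of 0.64 (95% confidence interval 0.46 to 0.82, edgeR adjusted p 2.97e-05). No annotated gene overlaps TUBGCP3.

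The log2 ratio of TUBGCP2 to TUBGCP3 in each library was 2.15, 1.86 and 1.83 in siControl and -0.42, -0.39 and -0.67 in siSON. It fell by 2.44 on the log2 scale (exact permutation p = 0.1, the smallest possible). Per kilobase of principal transcript TUBGCP2 made up 78.0% ± 2.04 of the TUBGCP2 and TUBGCP3 total in siControl and 39.6% ± 2.58 in siSON (SD, n = 3 each). In both pairs, gamma tubulins and small complex GCPs, the gene with the higher length-scaled level in siControl fell and the other rose. The MZT2 pair did not share this pattern, since MZT2A and MZT2B both fell, with log2 fold changes of -0.50 each.

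Of the GCPs that occur in the ring at lower copy number, TUBGCP6 fell, TUBGCP5 fell slightly and TUBGCP4 was not called. TUBGCP6 (ENSG00000128159; chromosome 22, 50217689 to 50244992, minus strand), the largest of the GCPs, had 49.8, 45.6 and 43.9 CPM in siControl and 11.2, 13.8 and 12.2 CPM in siSON. All siSON libraries were lower, 26.7% of the control mean was left, and the log2 fold change was -1.90 (95% confidence interval -2.10 to -1.70, edgeR adjusted p 1.45e-08). TUBGCP5 (ENSG00000275835; chromosome 15, 22983192 to 23039673, minus strand) had 26.3, 23.1 and 23.6 CPM in siControl and 19.2, 19.1 and 19.4 CPM in siSON. Its libraries did not overlap and its log2 fold change was -0.34 (95% confidence interval -0.51 to -0.17, edgeR adjusted p 0.00200). TUBGCP4 (ENSG00000137822; chromosome 15, 43369221 to 43409771, plus strand) had 22.3, 26.7 and 24.7 CPM in siControl and 26.8, 25.7 and 27.8 CPM in siSON, and the groups overlapped. Its log2 fold change was 0.12, with a 95% confidence interval of -0.05 to 0.30 (edgeR adjusted p 0.189), and the value was -0.07 without TMM factors. TP53BP1, on the opposite strand, shares 33.4% of the annotated exon bases of TUBGCP4 and had a log2 fold change of 0.47 (SE 0.05, edgeR adjusted p 9.03e-06), and ZSCAN29, also opposite, shares 0.9% and had -0.36.

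Of the small subunits, MZT2A and MZT2B fell modestly and MZT1 was not called. MZT1 (ENSG00000204899; chromosome 13, 72708357 to 72727687, minus strand) had 25.5, 28.6 and 27.3 CPM in siControl and 19.7, 27.4 and 25.2 CPM in siSON, and the groups overlapped. Its log2 fold change was -0.17, with a 95% confidence interval of -0.42 to 0.07 (edgeR adjusted p 0.188). With library size alone it was called lower, at -0.37 (edgeR adjusted p 0.0164), and without siSON replicate 1, the lowest library, it was -0.03. MZT2A (ENSG00000173272; chromosome 2, 131464900 to 131492743, minus strand) had 41.4, 40.2 and 40.7 CPM in siControl and 28.9, 28.9 and 28.6 CPM in siSON. MZT2B (ENSG00000152082; chromosome 2, 130181737 to 130190729, plus strand) had 78.3, 75.1 and 75.5 CPM in siControl and 54.7, 52.7 and 54.7 CPM in siSON.

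The MZT2 copies fell by nearly the same proportion, with log2 fold changes of -0.50 for MZT2A (95% confidence interval -0.63 to -0.37, edgeR adjusted p 1.86e-05) and -0.50 for MZT2B (95% confidence interval -0.62 to -0.38, edgeR adjusted p 8.16e-06). The part of reads from common stretches in this likeness of the copies was not tested. Their summed level was 119.8, 115 and 116 CPM in siControl and 83.6, 81.6 and 83.4 CPM in siSON, leaving 70.8% of the control sum. The log2 sum changed by -0.50, and by -0.696 without TMM factors. SMPD4 on the opposite strand shares 44.9% of the annotated exon bases of MZT2B and had a log2 fold change of 0.03 (SE 0.05, edgeR adjusted p 0.674). The genes of this pair lie 1274170 bp apart on opposite strands.

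**Figure D3:**
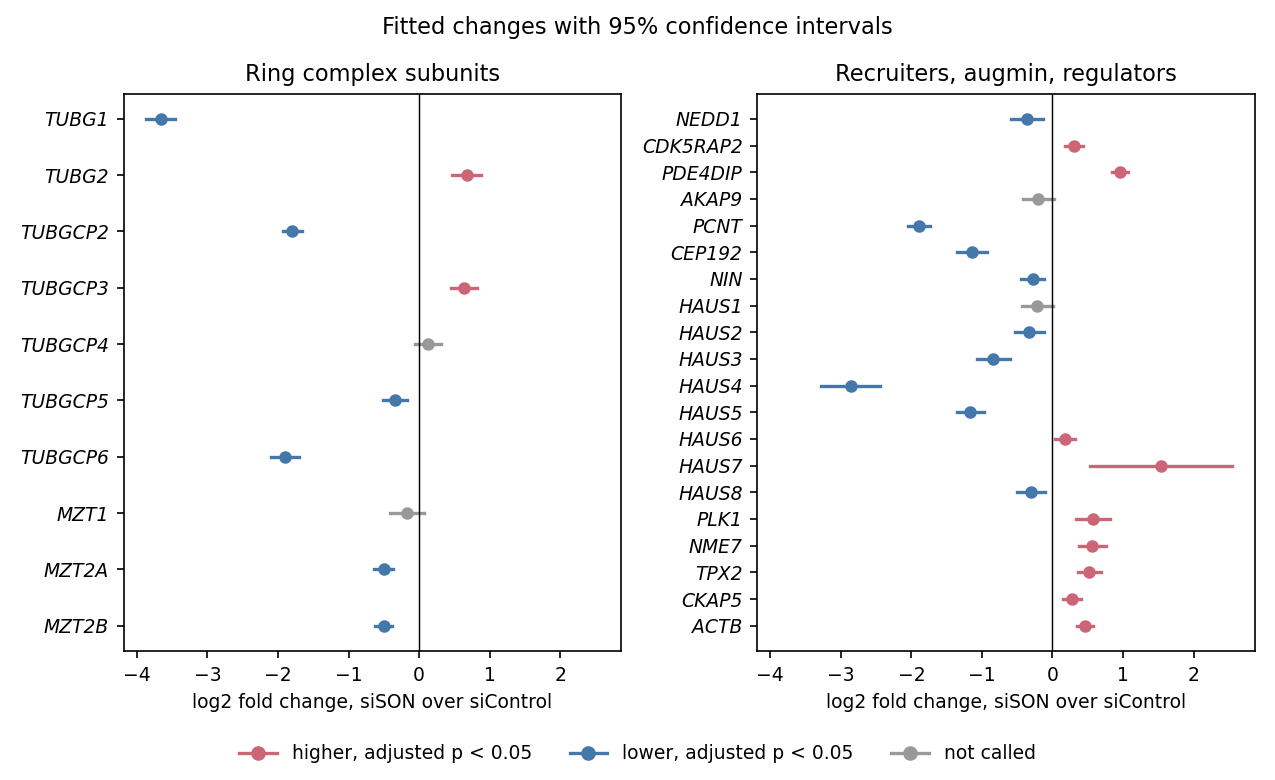
Fitted log2 fold changes, siSON over siControl, with 95% confidence intervals for the 10 subunits (left) and the 20 tested genes that recruit or regulate the ring complex (right); red is called higher, blue called lower and grey not called. TUBG1 at -3.66 lies lowest, and TUBG2 and TUBGCP3 are the only subunits called higher.

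To compare levels between genes, CPM was divided by transcript length, and the order depends on the length chosen. Per kilobase of principal transcript, MZT2B was highest in siControl with 81.8 ± 1.89 CPM per kb, beside TUBG1 with 77.0 ± 4.87, and the ranges of these overlapped. MZT2A followed at 65.3 ± 0.974, TUBGCP2 at 28.3 ± 0.633 and MZT1 at 11.8 ± 0.683 CPM per kb. TUBG2 at 9.03 ± 0.581 overlapped in range with TUBGCP6 at 8.28 ± 0.544, and TUBGCP6 with TUBGCP3 at 7.98 ± 0.789. TUBGCP5 at 6.32 ± 0.444 and TUBGCP4 at 3.61 ± 0.320 CPM per kb were lowest (SD, n = 3 for each value).

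In siSON the order was rearranged. MZT2B and MZT2A stood at 57.9 ± 1.24 and 46.2 ± 0.249 CPM per kb, and TUBG2 was next at 14.4 ± 1.48. TUBGCP3 at 12.4 ± 0.663 and MZT1 at 10.5 ± 1.72 stood above TUBGCP2 at 8.15 ± 0.450 and TUBG1 at 6.09 ± 0.724. TUBGCP5 at 5.00 ± 0.0337, TUBGCP4 at 3.94 ± 0.151 and TUBGCP6 at 2.21 ± 0.234 CPM per kb closed the order, in which no neighbours overlapped in range (SD, n = 3 for each value). TUBG1 thus went from rank 2 to rank 7 among the 10 subunits and TUBGCP6 from rank 7 to rank 10, while TUBG2 went from rank 6 to rank 3. When all annotated exons were taken as the length, TUBG1 went from rank 1 to rank 7, and MZT2A, whose annotated exons add up to 4093 nt against 624 nt for its principal transcript, stood at rank 5 and rank 4. With that length MZT1 stood at rank 2 in siSON, above TUBG2 at rank 3, and their ranges overlapped. The siSON ranges of MZT2A and TUBGCP3 also overlapped, as did those of TUBGCP2 and TUBG1. By principal transcript length, the gamma tubulins together made up 28.7% ± 1.30 of the length-scaled level of the 10 subunits in siControl and 12.3% ± 0.495 in siSON (SD, n = 3 each). With all annotated exons as the length, the shares were 37.4% ± 1.46 and 16.8% ± 0.824, so their size depends on the length chosen.

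**Figure D4:**
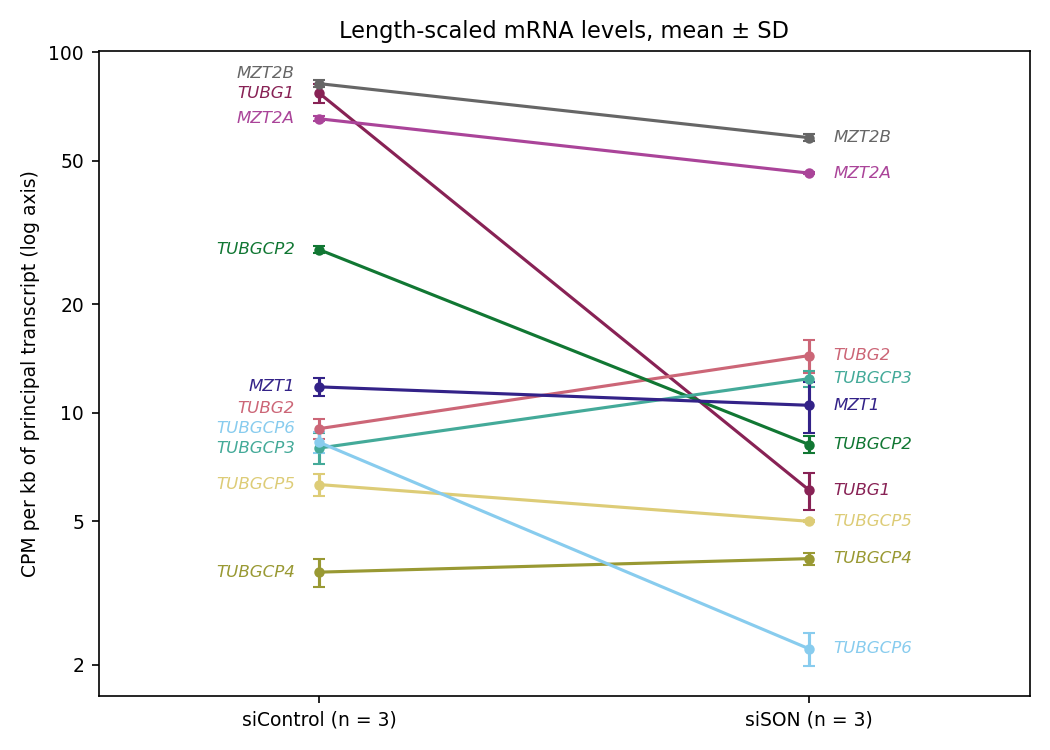
Length-scaled level (CPM per kb of principal transcript, log axis) of each subunit in siControl and siSON, with points at the mean of 3 libraries and bars of 1 SD. TUBG1 crosses from 77.0 to 6.09, passing below TUBG2 and TUBGCP3, and the lines of MZT2A and MZT2B run parallel.

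The subunits differ in features that played no part in choosing them. Among 12666 tested genes with a coding transcript and introns, the median GC content of the principal transcript was 48.9% and the median of the median intron length was 1865 bp. The subunits that fell at least 2-fold, TUBG1, TUBGCP2 and TUBGCP6, had transcripts of 57.8%, 59.1% and 61.3% GC, and median introns of 272, 803 and 167.5 bp. In TUBGCP6 14 of 24 introns are shorter than 200 bp, against 3 of 10 in TUBG1, 0 of 17 in TUBGCP2 and 0 of 21 in TUBGCP3. TUBGCP3, TUBGCP4 and TUBGCP5 had 46.5%, 45.3% and 44.5% GC and median introns of 2399, 1494 and 1120 bp. TUBG2, which rose, had the GC content and intron length of the group that fell. MZT2A and MZT2B had the highest GC content of the subunits at 67.8% each, and MZT1 the lowest at 32.0%. Over the 10 subunits Spearman's rho of the log2 fold change was -0.43 with GC content and 0.27 with median intron length, and over the 12666 genes it was -0.21 and 0.25. These are descriptions across genes, which are not independent replicates and share the same 6 libraries.

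By their centred log2 CPM over the 6 libraries, the genes with the pattern most like that of TUBG1 were MXD3, DBNL, MFAP2, WNT9A and SLC37A4, at Euclidean distances of 0.167, 0.219, 0.224, 0.259 and 0.292 on the log2 scale. Their fitted log2 fold changes ran from -3.77 for MFAP2 to -3.57 for DBNL, beside -3.66 for TUBG1. DBNL, an actin-binding adaptor, was also close to TUBG1 in CPM, at 113 ± 4.15 in siControl and 9.53 ± 0.898 in siSON (SD, n = 3 each). The distance takes in the size of the fall and the spread between replicates.

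Of 21 genes known to bind, recruit or regulate the ring complex, NINL, with 4 to 23 counts per library, was not tested. Of the other 20, 18 were called, 9 higher and 9 lower, with a median log2 fold change of -0.21, beside 71.7% of all genes tested called, 35.2% higher and 36.5% lower. Without TMM factors 6 were higher and 11 lower, and cyclic loess normalization gave 5 higher and 9 lower. Among 7 recruiting and scaffold genes 2 were higher and 4 lower, among 8 augmin genes 2 were higher and 5 lower, and all 5 regulators (PLK1, NME7, TPX2, CKAP5 and ACTB) were higher, with 4 of 5 higher without TMM factors, where CKAP5 was not called (0.08), and 3 of 5 under cyclic loess normalization, where CKAP5 and ACTB turned to -0.07 each and were not called. The recruiting genes were 1 higher and 5 lower under both of these settings, and the augmin genes were 1 higher and 6 lower without TMM factors and 1 higher and 4 lower under cyclic loess normalization. The 2 augmin genes called higher with TMM were HAUS7 and HAUS6. HAUS7 had 9 to 50 counts per library and a log2 fold change of 1.54 (edgeR adjusted p 0.0105). HAUS6 was at 0.17 (edgeR adjusted p 0.0334). It was not called without TMM factors (-0.02) or under cyclic loess normalization (0.006). The regulators include NME7, a kinase family protein that sits on the ring, TPX2 and CKAP5, which promote spindle microtubule growth with it, and ACTB, whose actin is part of the purified ring.

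Among these partner genes, the smallest adjusted p for a fall was that of PCNT, the pericentriolar scaffold that anchors rings. PCNT had 99.7, 97.3 and 97.7 CPM in siControl and 23.8, 28.0 and 27.3 CPM in siSON, a log2 fold change of -1.90 (SE 0.07, edgeR adjusted p 3.31e-09). The augmin subunits HAUS4 and HAUS5 followed with log2 fold changes of -2.86 (SE 0.19, edgeR adjusted p 1.53e-07) and -1.16 (SE 0.09, edgeR adjusted p 4.62e-07). Of the partner genes that rose, the smallest adjusted p was that of PDE4DIP, the myomegalin gene and a paralog of CDK5RAP2, which had 53.2, 53.0 and 53.3 CPM in siControl and 107, 100.3 and 103 CPM in siSON. It rose by 0.96 on the log2 scale (SE 0.05, edgeR adjusted p 3.98e-08). ACTB and TPX2 had 0.46 (SE 0.05, edgeR adjusted p 1.15e-05) and 0.52 (SE 0.07, edgeR adjusted p 4.54e-05), and 0.18 was left for TPX2 under cyclic loess normalization.

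**Figure D5:**
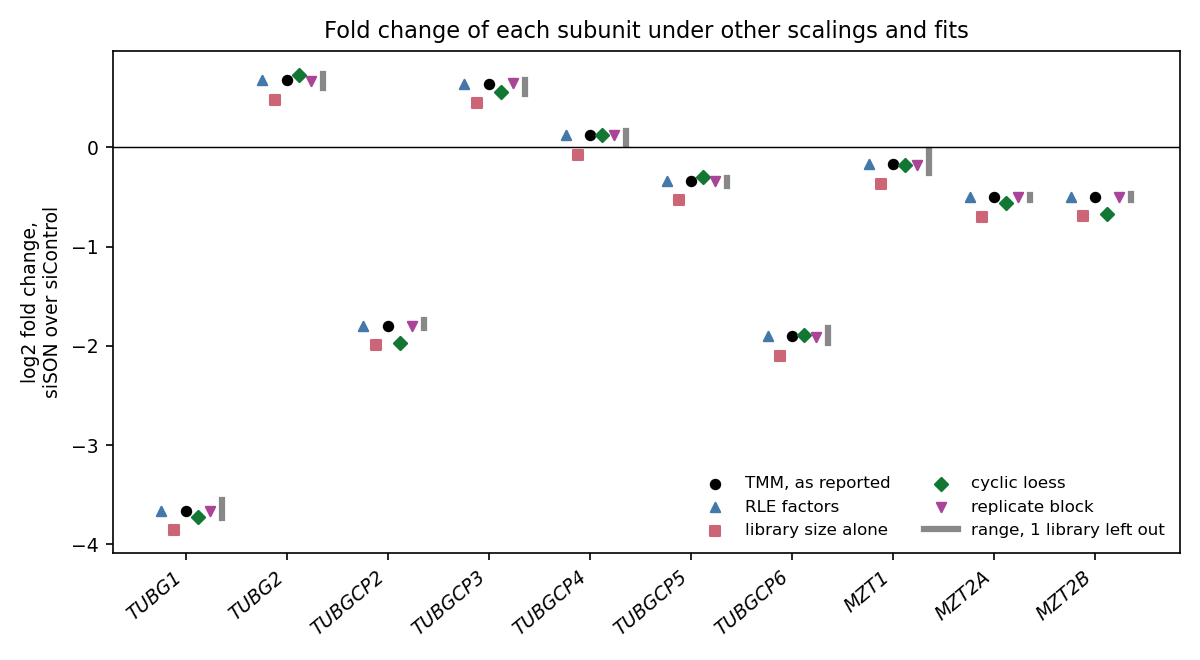
Log2 fold change of each subunit, siSON over siControl, as reported (TMM), with 3 other scalings, with the replicate number as a block, and as the range over the 6 fits that each left out 1 library. Library size alone lowers every value by about the same step and takes TUBGCP4 from 0.12 to -0.07, while TUBG2 and TUBGCP3 are above 0 and TUBG1, TUBGCP2 and TUBGCP6 far below 0 under every setting shown.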

How the data were processed

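The authors deposited raw whole-number counts per gene, with 1 column per library and no pooling. Per the submitters' processing notes, cutadapt 1.16, STAR 2.5.2a, featureCounts 1.6.2, DESeq2 1.28.1 and build hg38 were used; annotation release, strand setting and multi-mapping treatment are not given in the sources used here. Without a strand setting, reads in exon bases that a gene shares with one on the other strand cannot be told apart. All 58735 identifiers matched GENCODE release 29 (GRCh38), which gave positions, exons and sequences; the principal transcript was the APPRIS principal one with the longest coding sequence. Columns were matched to libraries by title.

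Genes were kept with filterByExpr (minimum count 10), scaled by TMM and compared with edgeR 4.0.16 in R 4.3.3 (robust quasi-likelihood fit, group as predictor). P-values were adjusted by Benjamini-Hochberg over 16591 genes and called under 0.05. Standard errors are the absolute log2 fold change over the square root of F. Log2 ratios and sums used a prior count of 2 and a 2-sided exact permutation test. The procedure was tested on simulated data in which few genes changed, equally many in each direction. Scaling under a change as broad as the one here was therefore not tested. Alternatives were DESeq2 1.42.0, limma-voom (limma 3.58.1), other scalings and filters, a replicate block and leaving out each library. The floor is 3 counts and covers counting error only, since reads are not independent molecules. The named genes are SON, the subunits, overlapping genes, pseudogenes named after subunits, up to 3 partner genes per direction with the smallest adjusted p, and the 5 genes nearest TUBG1 in centred log2 CPM. The members and lists were chosen with earlier results of these data known. Protein sequences were not used here.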

Additional observations from a re-analysis of the deposited data

How the results depend on the processing

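Of 194 fold changes, ratios and sums obtained under other settings, 188 kept their direction and their side of the threshold, or, for ratios and sums, moved by less than the spread between replicates. Of 98 counts of genes called, 97 lay within 1.5 times the reported count. Library size alone shifted all 10 subunits downward: TUBGCP4 turned from 0.12 to -0.073 (edgeR adjusted p 0.450), MZT1 was called lower at -0.37 (edgeR adjusted p 0.0164), and the log2 sums changed by -2.19 for gamma tubulin and by -0.696 for MZT2. Under cyclic loess normalization 5 partner genes in place of 9 were called higher. Across the fits leaving out 1 library, the difference in the MZT2 sum ran from -0.53 to -0.48, the former without siControl replicate 2. Same-numbered libraries had correlations of their deviations from the group means of 0.0461 to 0.194, not all above 0.1, so the numbers were not taken to pair them, although 6 of 6 libraries correlated best with their own number. With the replicate number as a block, MZT1 was called lower at -0.18 (edgeR adjusted p 0.0456), 9 subunits were called in place of 8, and no other subunit changed its call. Depth did not limit the subunits, whose lowest count was 498; NINL alone of the partner genes was too low to test. Strand and multi-mapping limits stand for the overlapping and near-identical genes named.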
